A study of Mus musculus with 36 samples.

Results

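The genes described here are 40 mouse genes whose products fold, modify, move or destroy proteins in the endoplasmic reticulum (ER). They were taken by gene name from 3 deposited tables of normalised read counts, and all 40 were found in each table, among 20964 gene rows present in at least 1 of them. The tables hold 18256 genes in pancreatic ductal adenocarcinoma (PDA) cells, 19834 in embryonic stem cells and embryoid bodies (EBs) and 18758 in pancreatic organoids. The names were chosen with results of the PDA table known, so the PDA values of the members are a description and carry no test.

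The study profiled responses to TGFβ and differentiation in mouse cells labelled KO or WT for Rreb1, which encodes a zinc finger transcription factor, and 20 of its 36 samples are the expression libraries used here. Cells of the PDA line KSIC_806 labelled KO or WT, both also marked S4 in their labels (a mark left unexplained by the sources used here), received TGFβ (100 pM, 1.5 h) or SB505124 (SB), which blocks the kinase of the type I TGFβ receptor (2.5 µM, 6 h). The 4 groups were KO TGFβ, WT TGFβ, KO SB and WT SB, with 2 libraries each, and because agent and time changed together their effects cannot be told apart. E14 mouse embryonic stem cells labelled KO or WT were sampled in an EB series at day 4 and day 0, again with 2 libraries in each of 4 groups. Organoids of pancreatic epithelial cells labelled CIY, another name without a stated meaning, received the same TGFβ or SB treatment with doxycycline (dox, 1 µg/mL at plating) or without it, with 1 library per condition. The labels name neither the gene that dox controls nor any clone, and they do not say whether replicates came from separate cultures. The effect of the KO label and any further difference between the cell populations used therefore cannot be told apart, and the p-values reflect spread among these libraries alone, which may be technical.

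The ER takes in secreted and membrane proteins through the Sec61 channel and folds them with HSP70-type and HSP90-type chaperones, lectin chaperones and disulfide-forming enzymes. Proteins that fail to fold are pulled back into the cytosol and degraded, a route called ER-associated degradation (ERAD). When unfolded protein builds up, the sensors Ern1 (IRE1α), Atf6 and Eif2ak3 (PERK) start the unfolded protein response (UPR), in which Xbp1 and Atf6 activate genes of folding and ERAD. The pancreas is known for this machinery through its exocrine cells, which secrete digestive enzymes in bulk.

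The promoters of the members were searched for the ER stress response element (ERSE), a sequence known to be bound by Atf6 together with NF-Y, because many members moved together in the PDA table. RefSeq promoter windows (assembly GRCm38.p6) were matched for 32 of the 40 members. Within the 250 bases before the annotated start, the letters CCAAT and CCACG with 9 bases between them stood on either strand in 10 of the 32 (31.2%), against 35 of 27025 genes with a window (0.13%). The 10 were Hspa5, Hsp90b1, Calr, Canx, Creld2, Pdia6, Dnajc3, Syvn1, Ero1lb and Derl3. The related ERSE-II, ATTGG and CCACG with 1 base between them, stood in Herpud1 alone among the members, against 10 of 27025 genes (0.037%). The core of the UPR element, TGACGTGG, stood in Sec24d alone, against 163 genes (0.603%), and the amino acid response element TGATGCAAT in 0 of the 32 members and 52 genes (0.192%). The 27025 genes include the members, and the members belong to pathways that Atf6 is known to activate, so the shares are a description and no test. A match is a description of letters and not a site of binding. The stretches around the matches are printed for 9 members that recur below, 5′ to 3′ on the strand of the gene, with the matched letters in capitals. In Calr, in Creld2 and in the match of Hsp90b1 nearer its start the element lies on the opposite strand, so the capitals there are its reverse complement.
Hspa5, chr2:34772015-34772053, plus strand: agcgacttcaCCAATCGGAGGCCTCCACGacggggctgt
Hsp90b1, chr10:86705523-86705666, minus strand: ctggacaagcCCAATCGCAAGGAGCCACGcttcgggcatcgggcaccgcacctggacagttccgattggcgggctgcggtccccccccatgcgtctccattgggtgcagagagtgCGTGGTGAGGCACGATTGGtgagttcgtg
Calr, chr8:84847065-84847103, minus strand: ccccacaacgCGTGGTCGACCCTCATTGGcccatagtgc
Canx, chr11:50325790-50325828, minus strand: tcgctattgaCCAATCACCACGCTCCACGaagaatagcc
Creld2, chr15:88819510-88819548, plus strand: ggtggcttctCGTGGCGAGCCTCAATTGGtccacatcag
Pdia6, chr12:17266481-17266519, plus strand: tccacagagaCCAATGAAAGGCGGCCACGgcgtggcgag
Dnajc3, chr14:118937817-118937855, plus strand: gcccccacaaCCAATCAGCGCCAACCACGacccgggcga
Syvn1, chr19:6046522-6046560, plus strand: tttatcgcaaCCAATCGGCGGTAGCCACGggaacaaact
Herpud1, chr8:94386367-94386397, plus strand: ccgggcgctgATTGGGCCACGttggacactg

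Depth, as reads recovered from the deposited values, ran from 20410770 to 44504338 reads per library in the PDA table, with KO SB replicate 1 the shallowest, from 19885697 to 29082712 in the EB table and from 23914870 to 35808735 in the organoids. Rreb1 itself was read in every library labelled KO. In PDA cells it had 2886 and 2560.4 in KO TGFβ against 4293 and 4212 in WT TGFβ, while under SB it had 2164 and 2195 in KO against 1458 and 1501 in WT. In the EB series it had 1920.5 and 1512 in KO day 4 against 1482 and 1586 in WT day 4, and 2642 and 2830.0 in KO day 0 against 1085 and 1019 in WT day 0. Counts per gene cannot reveal a short deletion, which leaves the KO label unchecked, and KO stands below for the label. Summed markers of pancreatic epithelium (6 of 6 genes) lay between 332240 and 515570 in the PDA libraries and between 178860 and 232890 in the organoids. In PDA cells nearly all of that sum was Krt8, Krt18, Krt19 and Cdh1. Epcam averaged 349 in KO TGFβ, 237 in WT TGFβ, 244 in KO SB and 77.3 in WT SB. Sox9 was lower in KO, averaging 33.1 in KO TGFβ, 438 in WT TGFβ, 31.4 in KO SB and 95.6 in WT SB. Pluripotency markers (6 of 6) lay between 101820 and 119960 in the stem cells at day 0. The library kit does not mark strand and 14 members overlap another annotated gene, as Hspa5 does Rabepk and Syvn1 does Mrpl49, so reads of such pairs cannot be told apart.

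Together the 40 members took 0.815% and 0.883% of the reads in the KO TGFβ libraries of the PDA cells and 0.884% and 0.880% in WT TGFβ, against 4.10% and 4.00% in KO SB and 2.55% and 2.27% in WT SB. Both SB groups lay above both TGFβ groups, and the KO SB libraries were the highest of all 20. Hspa5 alone held 0.0583% and 0.0654% of the reads in KO TGFβ and 0.0611% and 0.0599% in WT TGFβ, against 1.55% and 1.50% in KO SB and 0.652% and 0.559% in WT SB. In the EB series the members took 0.623% and 0.599% in KO day 4, 0.766% and 0.770% in WT day 4, 0.556% and 0.564% in KO day 0, and 0.588% and 0.586% in WT day 0. The organoid shares were 1.20% with dox and TGFβ, 1.18% with TGFβ alone, 1.33% with dox and SB, and 1.27% with SB alone.

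**Figure D1:**
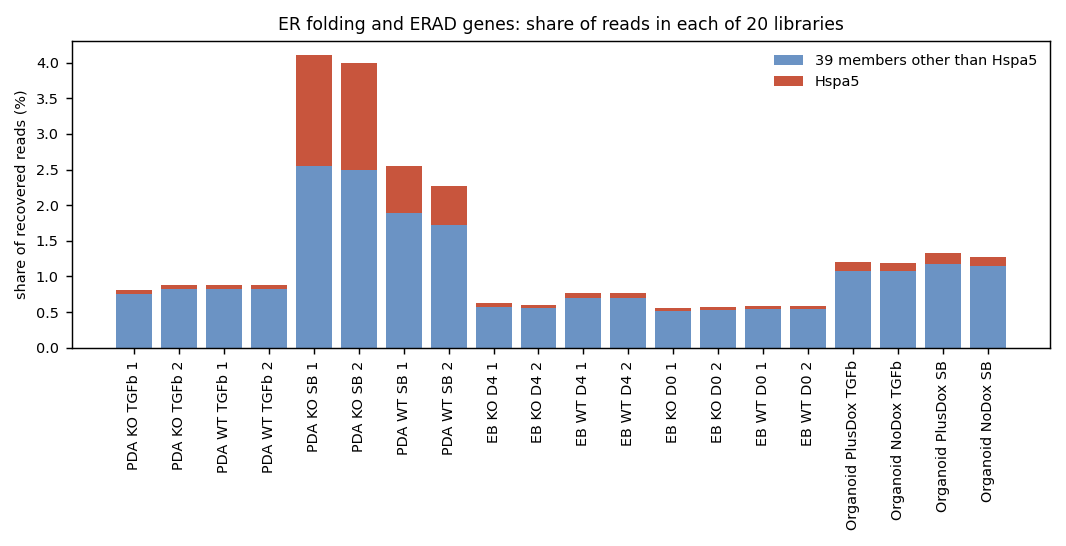
Share of recovered reads (%, vertical axis) taken by the 40 members in each of the 20 libraries (horizontal axis), with Hspa5 in red stacked on the other 39 members in blue. The 4 PDA libraries under SB stand highest, at 2.27% to 4.10%, and the other 16 bars lie between 0.556% and 1.33%.

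The values below are deposited normalised read counts, that is, reads divided by 1 factor per library, which may be compared across the libraries of a table but not between genes. Of the 40 members, 39 reached a PDA value of 10 in 2 or more of the 8 libraries, and Derl3, a channel protein of ERAD, did not (0.906 to 11.9). The lowest value of any other member in any PDA library was 98.4, so none of the 39 was kept only through a group in which it was high. Fold changes were fitted on log2(value + 1) with limma over all genes tested, and a gene was called when its p adjusted over all 13226 was under 0.05. The highest value of a member exceeded its lowest by a median of 3.76 times over the PDA libraries, against 1.72 times over the EB libraries and 1.32 times over the organoids.

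In PDA cells under TGFβ against SB, 38 of the 39 members were called lower in KO, and 37 were called lower and 1 higher in WT. Of all genes 38.7% were called in KO (20.6% higher, 18% lower) and 36.9% in WT (19.4% higher, 17.6% lower), and as these contrasts chose the members nothing is read from the counts. The TGFβ libraries lay wholly below the SB libraries for 39 of 39 members in KO and for 37 in WT, where 1 lay wholly above. Over all genes 32.3% lay wholly below and 37% wholly above in KO, and 34.5% and 35.4% did so in WT. The median log2 fold change of the members was −1.51 in KO and −1.01 in WT, against 0.02 and 0.00 over all genes. A value at least 2-fold lower was seen for 26 members in KO and 21 in WT, and at least 4-fold lower for 13 in KO and 6 in WT. These fold counts were not made over all genes.

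**Figure D2:**
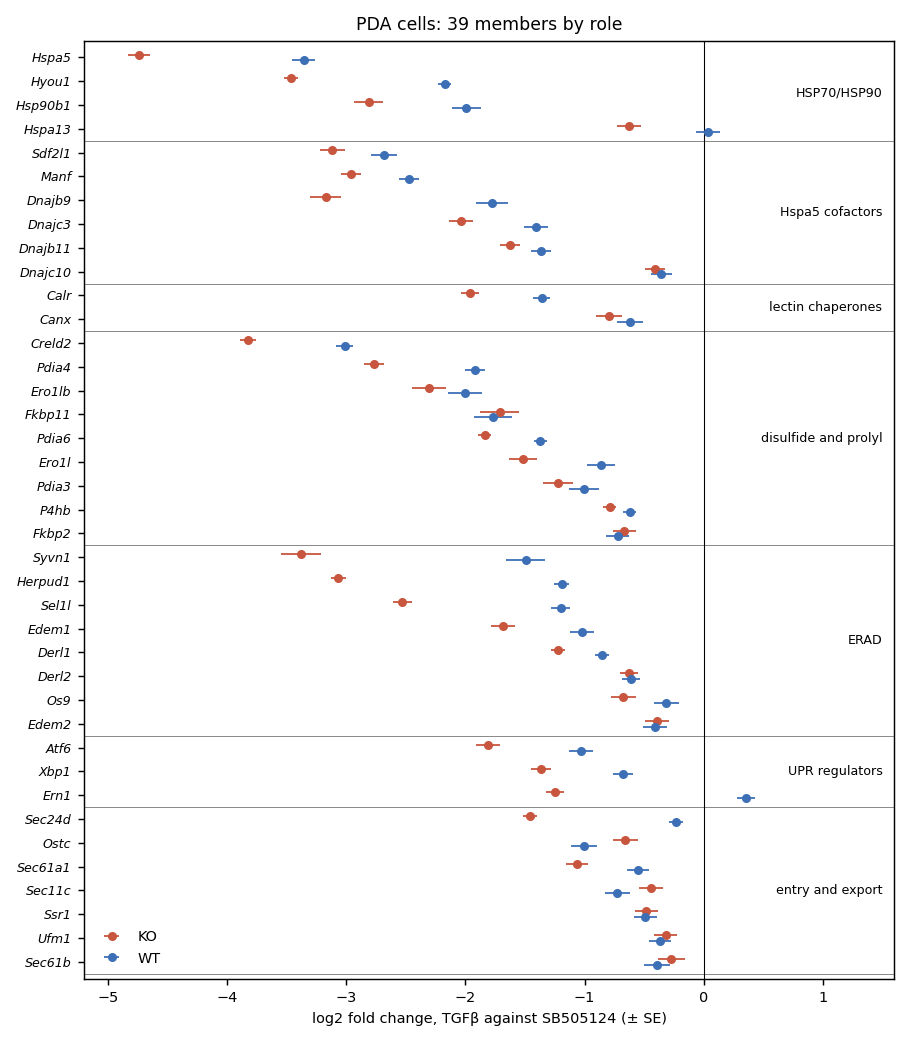
Log2 fold change of TGFβ against SB505124 in PDA cells (horizontal axis, ± SE of the fit) for 39 members grouped by role (vertical axis), with KO in red and WT in blue. Values run from −4.74 for Hspa5 in KO to 0.35 for Ern1 in WT, and the KO point lies left of the WT point for 31 of the 39.

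Among the HSP70-type and HSP90-type chaperones stands Hspa5 (BiP; chromosome 2, 34772090 to 34776529), the main ER chaperone, which also holds the UPR sensors inactive. It had 22119 and 24788 in KO TGFβ and 21864 and 21478 in WT TGFβ, against 637255 and 613929 in KO SB and 241085 and 204920 in WT SB. The treatments did not overlap in either genotype, and KO lay above WT under both agents, by far more under SB. Its log2 fold change was −4.74 ± 0.09 (SE) in KO and −3.36 ± 0.09 in WT, the largest in size among the members in each genotype. Hyou1, which exchanges the nucleotide on Hspa5, changed by −3.46 ± 0.05 in KO and −2.18 ± 0.05 in WT. Hsp90b1 (GRP94), the HSP90 of the ER, changed by −2.81 ± 0.12 in KO and −1.99 ± 0.12 in WT. Hspa13, an HSP70-like protein, differed from the others of this group: it changed by −0.63 ± 0.10 in KO and was at 0.03 ± 0.10 in WT, the 1 member not called there.

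The cofactors of Hspa5 were called lower in 6 of 6 cases in each genotype. Sdf2l1 (chromosome 16, 17130138 to 17132383), a partner of the J-protein Dnajb11, had 641 and 518 in KO TGFβ and 585 and 579 in WT TGFβ, against 4858 and 5153 in KO SB and 3625 and 3875 in WT SB. The treatments did not overlap, with a log2 fold change of −3.12 ± 0.11 in KO and −2.68 ± 0.11 in WT. Dnajb9 (ERdj4), a J-protein that restrains Ern1, changed by −3.17 ± 0.13 in KO and −1.78 ± 0.13 in WT. Manf, a secreted protein that binds Hspa5, changed by −2.96 ± 0.08 in KO and −2.47 ± 0.08 in WT. The J-proteins Dnajc3, Dnajb11 and Dnajc10 lay between −2.04 and −0.41 in KO and between −1.41 and −0.36 in WT, with the reductase Dnajc10 at the small end of both.

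Both lectin chaperones, which hold glycoproteins while they fold, were called lower. Calr (chromosome 8, 84842088 to 84846931) had 30817 and 33911 in KO TGFβ and 28523 and 28438 in WT TGFβ, against 127462 and 123889 in KO SB and 76782 and 69742 in WT SB. All SB libraries lay above all TGFβ libraries, and KO lay above WT under both agents, with a log2 fold change of −1.96 ± 0.08 in KO and −1.36 ± 0.08 in WT. Its membrane-bound relative Canx changed by −0.80 ± 0.11 in KO and −0.62 ± 0.11 in WT.

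All 9 genes of disulfide formation and prolyl isomerisation were called lower in both genotypes, over a wide range. Creld2 (chromosome 15, 88819646 to 88826681), which has disulfide isomerase activity, had 1501 and 1417 in KO TGFβ and 1657 and 1762 in WT TGFβ, against 20625 and 20792 in KO SB and 13343 and 14302.5 in WT SB. The KO libraries lay below WT under TGFβ and above WT under SB, and the log2 fold change was −3.83 ± 0.07 in KO and −3.01 ± 0.07 in WT. Among the protein disulfide isomerases, Pdia4 changed by −2.77 ± 0.08 in KO and −1.92 ± 0.08 in WT, and Pdia6 by −1.84 ± 0.05 in KO and −1.37 ± 0.05 in WT. Pdia3, which works with Calr and Canx, changed by −1.23 ± 0.13 in KO and −1.01 ± 0.13 in WT. P4hb, the classical isomerase, had the smaller changes of −0.79 ± 0.06 in KO and −0.62 ± 0.06 in WT. Of the oxidases that recharge these enzymes, Ero1lb changed by −2.31 ± 0.14 in KO and −2.0 ± 0.14 in WT, and Ero1l by −1.51 ± 0.12 in KO and −0.86 ± 0.12 in WT. The changes of the prolyl isomerases, though not the levels of Fkbp11, differed little between genotypes: Fkbp11 changed by −1.71 ± 0.16 in KO and −1.77 ± 0.16 in WT, and Fkbp2 by −0.67 ± 0.10 in KO and −0.72 ± 0.10 in WT.

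**Figure D3:**
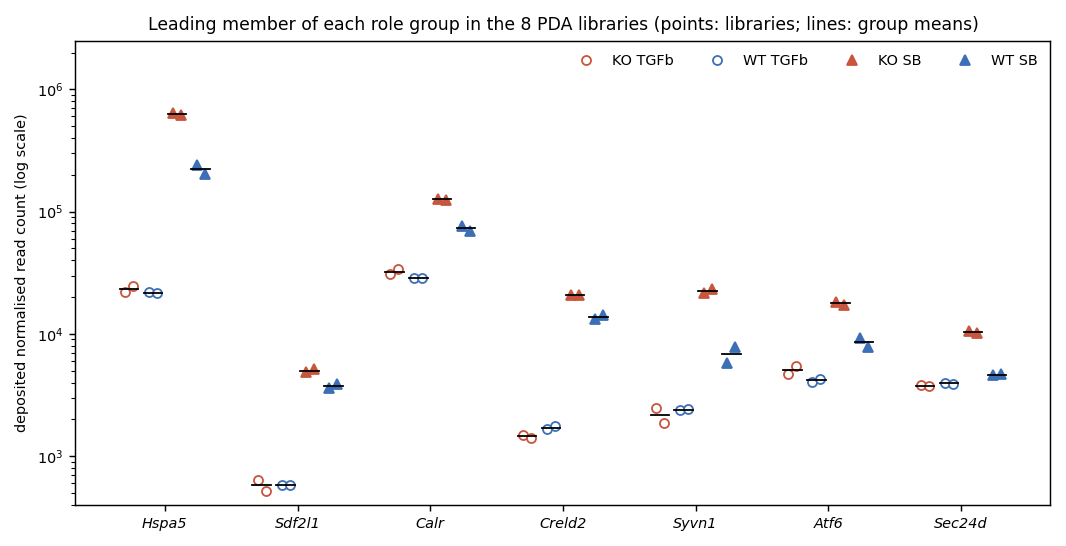
Deposited normalised read count (vertical axis, log scale) of the leading member of each role group (horizontal axis) in the 8 PDA libraries, with open circles for TGFβ, filled triangles for SB, red for KO, blue for WT and lines for group means. SB lies above TGFβ and KO SB above WT SB in all 7 genes, and heights may be compared within a gene only.

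All 8 ERAD genes tested were called lower, and Syvn1, Herpud1 and Sel1l of the Syvn1 ligase complex changed most. Syvn1 (HRD1; chromosome 19, 6046576 to 6053718), the membrane ubiquitin ligase, had 2460 and 1873 in KO TGFβ and 2369 and 2429 in WT TGFβ, against 21564 and 23186 in KO SB and 5797 and 7878 in WT SB. Under TGFβ the genotypes overlapped and under SB they did not, and the log2 fold change was −3.38 ± 0.16 in KO and −1.49 ± 0.16 in WT. Herpud1, which helps to assemble the complex (chromosome 8, 94386429 to 94395371; given in full after its values were seen), had 5260.2 and 5043 in KO TGFβ and 3991 and 4091 in WT TGFβ, against 42719.9 and 43724 in KO SB and 8934 and 9538 in WT SB. KO lay above WT under both agents, and the log2 fold change was −3.07 ± 0.06 in KO and −1.19 ± 0.06 in WT. Sel1l, the adaptor of Syvn1, changed by −2.53 ± 0.08 in KO and −1.20 ± 0.08 in WT. Edem1, which trims mannose from failed glycoproteins, changed by −1.68 ± 0.10 in KO and −1.02 ± 0.10 in WT, and Derl1, a channel protein, by −1.22 ± 0.06 in KO and −0.85 ± 0.06 in WT. Derl2, the lectin Os9 and Edem2 changed least, between −0.68 and −0.39 in KO and between −0.61 and −0.32 in WT.

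Of the UPR regulators, Atf6 (chromosome 1, 170704457 to 170868585), a membrane-held transcription factor released by cleavage, had 4684 and 5431 in KO TGFβ and 4075 and 4249 in WT TGFβ, against 18066 and 17373 in KO SB and 9179 and 7863 in WT SB. All SB libraries lay above all TGFβ libraries, and the log2 fold change was −1.81 ± 0.10 in KO and −1.03 ± 0.10 in WT. Xbp1, whose mRNA is spliced by Ern1, changed by −1.36 ± 0.09 in KO and −0.68 ± 0.09 in WT, and gene counts do not show the splicing. Ern1 went opposite ways in the genotypes. It had 716 and 754 in KO TGFβ and 1288 and 1249.7 in WT TGFβ, against 1704 and 1786 in KO SB and 1024 and 961 in WT SB (given in full after its values were seen). That is −1.25 ± 0.08 in KO and 0.35 ± 0.08 in WT, and the WT call was lost without either WT TGFβ library.

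Genes of entry and export changed least as a group, with a median of −0.48 in KO and −0.49 in WT. Sec24d (chromosome 3, 123264801 to 123365641), a cargo adaptor of the COPII coat that buds vesicles from the ER, had 3813 and 3727 in KO TGFβ and 3979 and 3899.9 in WT TGFβ, against 10579.9 and 10149 in KO SB and 4613 and 4668 in WT SB. The KO SB libraries stood alone, and the log2 fold change was −1.46 ± 0.06 in KO and −0.24 ± 0.06 in WT. The channel subunit Sec61a1 changed by −1.06 ± 0.09 in KO and −0.55 ± 0.09 in WT. Ostc, a subunit of the enzyme that attaches glycans, changed less in KO (−0.66 ± 0.11) than in WT (−1.0 ± 0.11), as did the signal peptidase subunit Sec11c (−0.44 ± 0.10 in KO and −0.72 ± 0.10 in WT). Ssr1 of the translocon, the ubiquitin-like protein Ufm1 and the channel subunit Sec61b lay between −0.49 and −0.27 in both genotypes, and Sec61b in KO was the 1 member not called there.

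Set against the promoter letters printed above, the 9 tested members with an ERSE had a median log2 fold change of −2.31 in KO and −1.49 in WT. The 22 with a window and no ERSE had −1.31 in KO and −0.70 in WT, and the 8 without a window −1.14 and −0.93. The ranges in KO overlapped, from −4.74 to −0.80 with an ERSE and from −3.17 to −0.27 without one, and no test was made. These contrasts chose the members, and outside them the medians lay close together. At day 4 of the EB series KO against WT had a median of −0.13 with an ERSE and −0.27 without one, and at day 0 −0.18 and −0.07. In the organoids TGFβ against SB had −0.01 and −0.10 with dox, and −0.01 and −0.08 without dox.

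The KO response minus the WT response was called for 22 of the 39 members, all of them negative, with a median of −0.49. Over all genes 21.8% were called, 9.71% positive and 12.1% negative. The calls covered 4 of 4 HSP70-type and HSP90-type chaperones, 3 of 6 cofactors, 1 of 2 lectins, 4 of 9 disulfide and prolyl genes, 5 of 8 ERAD genes, 3 of 3 regulators and 2 of 7 genes of entry and export. Syvn1 (−1.89 ± 0.23), Herpud1 (−1.88 ± 0.09), Ern1 (−1.60 ± 0.11), Dnajb9 (−1.40 ± 0.19) and Hspa5 (−1.38 ± 0.13) had the largest differences. Leaving out WT TGFβ replicate 1 gave 11 calls and leaving out its replicate 2 gave 10. For KO SB the corresponding counts were 10 with replicate 1 left out and 14 with replicate 2 left out, and all calls stayed negative.

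For KO against WT, as for the other PDA contrasts, the members were chosen with results of these libraries known, so counts are a description. The genotypes differed mainly under SB. There 27 members were called higher in KO and 2 lower, with a median of 0.58, and 56.2% of all genes were called (28.9% higher, 27.2% lower). The KO SB libraries lay wholly above WT SB for 28 members and wholly below for 4, against 38.4% and 38.3% of all genes. Equal library totals, under which the all-gene median moved by −0.153, gave 24 higher and 5 lower, and quantile normalisation gave 25 and 4. Herpud1 stood highest (2.23 ± 0.06), followed by Syvn1 (1.73 ± 0.16), Hspa5 (1.49 ± 0.09), Dnajb9 (1.33 ± 0.13), Sec24d (1.16 ± 0.06), Sel1l (1.13 ± 0.08) and Hyou1 (1.09 ± 0.05). The 2 lower calls were Ostc (−0.65 ± 0.11) and Ssr1 (−0.34 ± 0.10).

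Under TGFβ 11 members were called in KO against WT, 7 higher and 4 lower, with a median of −0.01 and with 40.2% of all genes called (21.2% higher, 19% lower). KO lay wholly above WT for 15 members and wholly below for 10, against 36% and 37.5% of all genes. The split of calls was 3 higher and 7 lower after rescaling to the same total, 5 and 6 after quantile normalisation and 8 and 2 with DESeq2. The count was 3 without either WT TGFβ library, 7 without KO TGFβ replicate 2, and 4 with the replicate number as a block. KO and WT stood within 0.5 of each other on the log2 scale for 37 of the 39 members under TGFβ and for 15 of 39 under SB. The members outside that band under TGFβ were Fkbp11 (0.83 ± 0.16) and Ern1 (−0.79 ± 0.08). The band was not counted over all genes, of which fewer were called under TGFβ (40.2%) than under SB (56.2%), so nothing particular to the members is read from it. The PDA contrasts share libraries and are not independent of each other.

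**Figure D4:**
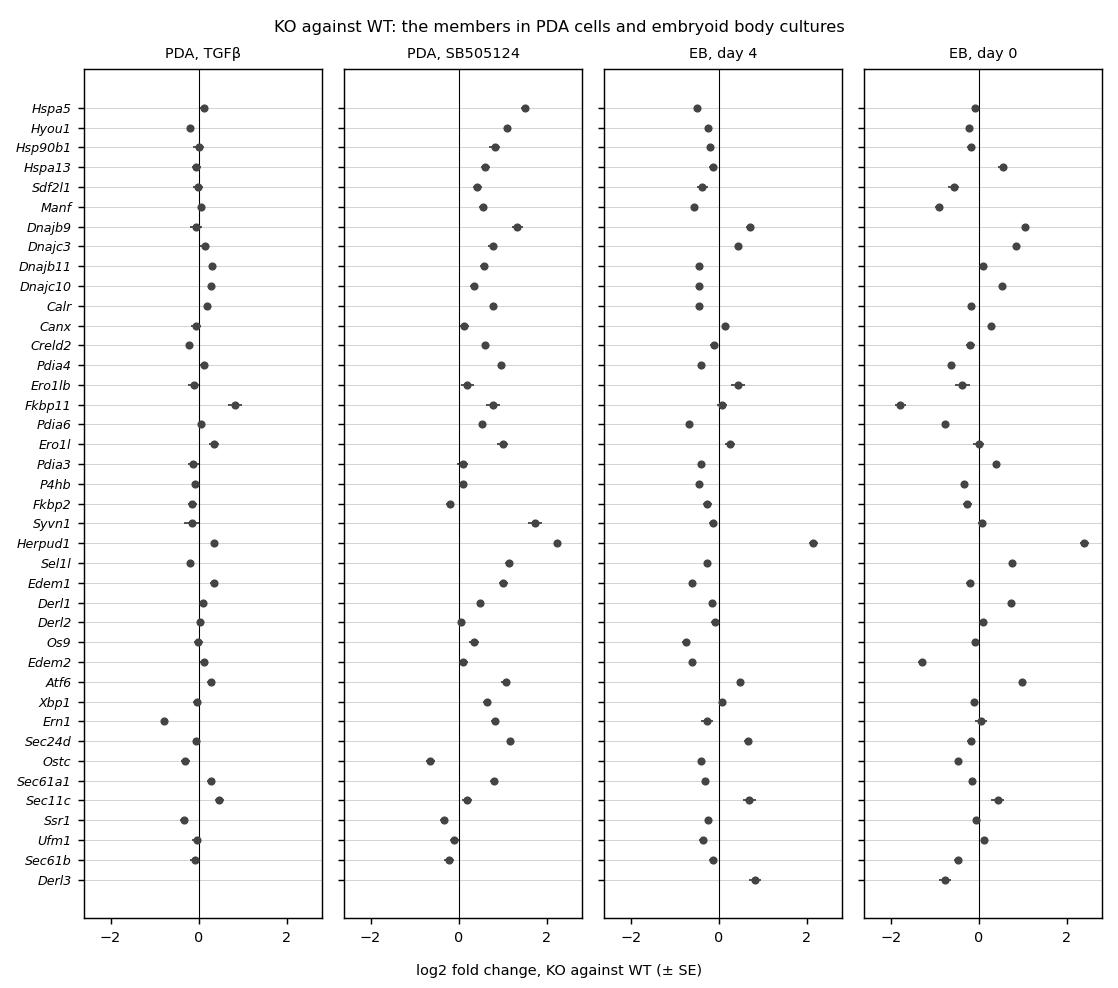
Log2 fold change of KO against WT (horizontal axis, ± SE of the fit) for the members (vertical axis) in PDA cells under TGFβ, in PDA cells under SB505124, and in the EB series at day 4 and day 0. PDA points lie near 0 under TGFβ and mostly above 0 under SB, and Herpud1 has the highest value under SB (2.23), at day 4 (2.14) and at day 0 (2.39). Derl3 was below the filter in PDA cells.

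Other genes of these pathways were read from lists written with earlier results known. The genes named from the lists were picked by their small adjusted p, so those p-values are a description and no independent test. Under TGFβ against SB, 18% of all genes were called lower and 20.6% higher in KO, and 17.6% lower and 19.4% higher in WT. Of 25 tested ER folding genes outside the 40, 17 were called lower in KO, and 18 lower and 2 higher in WT, with median log2 fold changes of −0.39 and −0.40. Txndc11, a thioredoxin-domain protein of the ER, changed by −1.47 ± 0.07 in KO (limma adjusted p = 9.22e-06) and −0.88 ± 0.07 in WT (limma adjusted p = 0.000112). Of 20 other ERAD genes, 10 fell and 1 rose in KO and 12 fell and 1 rose in WT. Vimp (selenoprotein S), which links ERAD parts at the membrane, changed by −1.50 ± 0.09 in KO (limma adjusted p = 1.91e-05) and −1.40 ± 0.09 in WT (limma adjusted p = 2.97e-05). Of 31 genes of translocation and glycosylation, 17 fell and 1 rose in KO and 23 fell and 1 rose in WT, and of 20 genes of COPII and retrieval receptors 15 fell in KO and 14 fell and 1 rose in WT. Of 7 genes of the Ufm1 conjugation pathway 3 fell in KO and 2 in WT. For chaperones of other compartments no difference from these lists was tested. Of 23 cytosolic chaperone genes 2 fell and 3 rose in KO and 9 fell and 3 rose in WT, with medians of 0.04 and −0.23, and of 10 mitochondrial ones 3 fell in KO and 6 in WT, with medians of −0.09 and −0.34.

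Of 14 genes of the Eif2ak3 and Atf4 branch of the UPR, 13 fell and 1 rose in KO and 12 fell and 1 rose in WT, with medians of −1.74 and −1.05. Among all genes tested 18% fell and 20.6% rose in KO, and 17.6% fell and 19.4% rose in WT. The stress-induced factor Ddit3 (CHOP) changed by −5.25 ± 0.14 in KO (limma adjusted p = 9.79e-07) and −3.56 ± 0.14 in WT (limma adjusted p = 4.53e-06). Under SB 13 of the 14 were higher in KO than in WT, with a median of 0.70, where 28.9% of all genes were called higher and 27.2% lower. Of 12 tested UPR signalling genes outside the 40, 4 fell under TGFβ in KO, while in WT 4 rose and 2 fell, with medians of −0.15 and 0.06. The sensor gene Eif2ak3 changed by −0.55 ± 0.07 in KO (limma adjusted p = 0.000689) and 0.56 ± 0.07 in WT (limma adjusted p = 0.000697). Of the same 12 genes, 7 were higher and 1 was lower in KO under SB. They included Eif2ak3 itself (1.62 ± 0.07, limma adjusted p = 2.00e-06) and Ern2, a relative of Ern1 known from mucous epithelia (5.24 ± 0.23, limma adjusted p = 2.66e-06).

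Markers of other cell types were read beside these results. Acinar markers (5 of 10 in the PDA table) summed to 551 to 602 in KO TGFβ, 154 to 186 in WT TGFβ, 320.3 to 346 in KO SB and 154 to 167 in WT SB, and 2 of the 5 were at 0 in both KO SB libraries. Nearly all of that sum was Cela1, and Cel ran the other way between genotypes, averaging 2.27 in KO TGFβ, 7.75 in WT TGFβ, 5.68 in KO SB and 15.1 in WT SB. Fibroblast markers (6 of 6) summed to 410.1 to 426 in KO TGFβ, 389 to 434 in WT TGFβ, 130.3 to 135 in KO SB and 73.9 to 91.8 in WT SB. The like sums under TGFβ hold opposite differences. Col1a1 averaged 121 in KO TGFβ and 247 in WT TGFβ, and Pdgfra 286 in KO TGFβ and 141 in WT TGFβ. Neuroectoderm markers (2 of 4, nearly all of it Nes) summed to 20.9 to 24.5 in KO TGFβ, 1198 to 1246 in WT TGFβ, 18.1 to 25.7 in KO SB and 1080.2 to 1222 in WT SB, so the populations labelled KO and WT differed in these under both agents. Markers of visceral endoderm (8 of 8 genes, none at 0 in a whole group) summed to 8695.8 to 8992 in KO TGFβ, 5102 to 5170 in WT TGFβ, 14406 to 15284 in KO SB and 6664 to 6692 in WT SB, highest in the same group as most ER members. Within that list Sox17 averaged 1144 in KO TGFβ, 92.03 in WT TGFβ, 6265 in KO SB and 805 in WT SB. Gata4 was also highest in KO SB (4237). Gata6 was highest in KO TGFβ (1835, against 1466 in KO SB), and Afp in WT SB (2630, against 2172 in KO SB). Of the 6 tested, 4 were called higher and 1 lower in KO against WT under SB, where 28.9% and 27.2% of all genes were. Pluripotency markers (4 of 6) summed to 3596 to 4238 in KO TGFβ, 1731 to 1797 in WT TGFβ, 6336 to 6506 in KO SB and 1766 to 1915 in WT SB, but that sum was Klf4 alone, since Pou5f1, Nanog and Zfp42 averaged at most 0.918 in any group. The part of these differences in the results on ER genes was not tested. In such bulk samples fewer cells of a type and less RNA per cell cannot be told apart.

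In the EB table all 40 members passed the same filter, with 15227 genes tested. The members were chosen with earlier results of these data known, so the p-values below are no independent test of them. At day 4 against day 0, 21 of 40 members were called in KO (11 higher, 10 lower), where 60% of all genes were (29.1% higher, 30.9% lower), and 23 of 40 in WT (16 higher, 7 lower), where 63.1% were (32.3% higher, 30.8% lower). Over both directions together the members were called no more often than all genes, while in WT the share called higher was above that of all genes and the share called lower was below it, with no test made. Day 4 lay wholly above day 0 for 15 members and wholly below for 16 in KO (38.2% and 40.7% of all genes), and for 26 and 9 in WT (41.9% and 41.7%). The median log2 change was −0.05 in KO and 0.13 in WT, against −0.02 and 0.00 over all genes. A change of at least 2-fold was seen for 4 members in KO and 1 in WT, a count not made over all genes.

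Hspa5 had 11223 and 10681 in KO day 4 and 15346 and 15481 in WT day 4, against 10008 and 10585 in KO day 0 and 10794 and 11027 in WT day 0. The WT day 4 libraries stood above the other 6. Its day 4 against day 0 change was 0.09 ± 0.06 in KO (limma adjusted p = 0.251) and 0.50 ± 0.06 in WT (limma adjusted p = 1.18e-05), and the 2 changes differed (−0.41 ± 0.09, limma adjusted p = 0.00173). The oxidase Ero1l rose in both genotypes. It averaged 7381 ± 1802 in KO day 4 and 2415 ± 31.7 in KO day 0 (SD, n = 2 each), and 6121 ± 707 in WT day 4 and 2418 ± 114 in WT day 0. The log2 change was 1.59 ± 0.12 in KO (limma adjusted p = 7.2e-08) and 1.34 ± 0.12 in WT (limma adjusted p = 3.45e-07). P4hb rose too, by 0.74 ± 0.07 in KO (limma adjusted p = 3.12e-07) and 0.84 ± 0.07 in WT (limma adjusted p = 7.01e-08).

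Calr, Sdf2l1 and Creld2, which led their roles in PDA cells, spanned a narrower range here. Calr had 11142 and 10681 in KO day 4 and 14599.5 and 15362 in WT day 4, against 11785.5 and 12368 in KO day 0 and 13519.8 and 13739 in WT day 0. KO lay below WT on both days, by −0.46 ± 0.07 at day 4 (limma adjusted p = 3.74e-05) and −0.17 ± 0.07 at day 0 (limma adjusted p = 0.0293), and the day 0 call was lost without WT day 0 replicate 1, WT day 0 replicate 2 or KO day 0 replicate 1. Sdf2l1 had 363 and 309 in KO day 4 and 438 and 431 in WT day 4, against 330.0 and 409 in KO day 0 and 516 and 577 in WT day 0. It was lower in KO by −0.37 ± 0.12 at day 4 (limma adjusted p = 0.0189) and −0.57 ± 0.12 at day 0 (limma adjusted p = 0.000977), and the day 4 call was lost without KO day 4 replicate 2 or either WT day 4 library. Creld2 had 848 and 986 in KO day 4, 1038 and 942 in WT day 4, 1085 and 1128 in KO day 0 and 1198 and 1335 in WT day 0. Its KO against WT differences were −0.11 ± 0.09 at day 4 and −0.19 ± 0.09 at day 0 and were not called (limma adjusted p = 0.312 and 0.0785).

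Between the genotypes of the EB series, 29 of 40 members were called at day 4 (8 higher and 21 lower in KO), where 56.2% of all genes were (27.8% higher, 28.4% lower), and 27 at day 0 (11 higher, 16 lower), where 67.2% were (33.9% higher, 33.3% lower). KO lay wholly above WT for 9 members and wholly below for 25 at day 4 (37.7% and 39% of all genes), and for 13 and 21 at day 0 (42.4% and 42.3%). The medians were −0.24 at day 4 and −0.10 at day 0, and 5 members were called higher and 13 lower on both days. The share of all genes called the same way on both days was not taken, so nothing is read from that count. Herpud1 stood furthest from 0 on both days. It had 1436 and 1777 in KO day 4 and 371 and 352 in WT day 4, against 3094 and 3317 in KO day 0 and 639 and 584 in WT day 0 (given in full after its values were seen). KO lay above WT without overlap, by 2.14 ± 0.10 at day 4 (limma adjusted p = 3.89e-10) and 2.39 ± 0.10 at day 0 (limma adjusted p = 1.78e-10). It was lower at day 4 than at day 0 in both genotypes, by −1.0 ± 0.10 in KO (limma adjusted p = 9.01e-07) and −0.76 ± 0.10 in WT (limma adjusted p = 1.21e-05).

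Atf6 was also higher in KO, with 1615 and 1641 in KO day 4 and 1108 and 1228 in WT day 4, against 2535 and 2637 in KO day 0 and 1344 and 1285 in WT day 0. The difference was 0.48 ± 0.07 at day 4 (limma adjusted p = 6.86e-05) and 0.98 ± 0.07 at day 0 (limma adjusted p = 4.5e-08). The J-proteins Dnajb9 and Dnajc3 followed, at 0.70 ± 0.08 and 0.44 ± 0.08 at day 4 (limma adjusted p = 5.48e-06 and 0.000258) and 1.05 ± 0.08 and 0.84 ± 0.08 at day 0 (limma adjusted p = 6.29e-08 and 3.33e-07). No call was made for Xbp1 (limma adjusted p = 0.46 at day 4 and 0.173 at day 0), Ern1 (0.107 and 0.774) or Syvn1 (0.22 and 0.561). Syvn1 had 874 and 817 in KO day 4, 875 and 988 in WT day 4, 951 and 829.9 in KO day 0 and 860.2 and 841 in WT day 0, and the KO libraries lay below WT at day 4 and overlapped with WT at day 0.

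Among the members lower in KO on both days were the isomerase Pdia6, by −0.68 ± 0.06 at day 4 (limma adjusted p = 2.98e-07) and −0.76 ± 0.06 at day 0 (limma adjusted p = 6.94e-08), and Manf, by −0.55 ± 0.09 at day 4 (limma adjusted p = 9.37e-05) and −0.90 ± 0.09 at day 0 (limma adjusted p = 5.7e-07). Edem2, which trims mannose, was lower by −0.60 ± 0.09 at day 4 (limma adjusted p = 4.64e-05) and −1.28 ± 0.09 at day 0 (limma adjusted p = 1.79e-08). Os9, which hands glycoproteins to the Syvn1 complex, was lower in KO at day 4 (−0.75 ± 0.08, limma adjusted p = 2.52e-06) and not called at day 0 (limma adjusted p = 0.372).

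The change between days differed by genotype for 21 of 40 members (7 higher and 14 lower in KO), where 55.7% of all genes were called (27.1% higher, 28.6% lower). Fkbp11 had 323 and 321 in KO day 4 and 329 and 285 in WT day 4, against 107 and 106 in KO day 0 and 365 and 374 in WT day 0, so the KO day 0 libraries stood alone. The difference of its changes was 1.86 ± 0.17 (limma adjusted p = 7.87e-07). Derl3 rose by 1.92 ± 0.14 in KO (limma adjusted p = 3.26e-08), averaging 372 ± 10.2 in KO day 4 and 97.6 ± 8.27 in KO day 0, against 210.5 ± 8.23 in WT day 4 and 166 ± 13.3 in WT day 0 (SD, n = 2 each). It was higher in KO at day 4 and lower at day 0. Sec24d had 1222 and 1435 in KO day 4 and 869 and 800.1 in WT day 4, against 808 and 763 in KO day 0 and 929.7 and 847 in WT day 0, and its changes differed by 0.84 ± 0.13 (limma adjusted p = 0.000101). Sel1l (−1.03 ± 0.11, limma adjusted p = 2.09e-06), Dnajc10 (−0.99 ± 0.10, limma adjusted p = 1.18e-06) and Pdia3 (−0.80 ± 0.10, limma adjusted p = 9.99e-06) went the other way, being lower in KO at day 4 and higher at day 0.

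Of the Eif2ak3 and Atf4 list, written with earlier results known, 13 of 14 genes were higher in KO at day 4 of the EB series (median 1.20). At day 0 14 of 14 were (median 1.72). Over all genes 27.8% were called higher and 28.4% lower at day 4, and 33.9% and 33.3% at day 0. The list includes Trib3, a pseudokinase induced by Atf4 (2.41 ± 0.10 at day 4, limma adjusted p = 2.16e-10, and 2.08 ± 0.10 at day 0, limma adjusted p = 8.56e-10). Of the 20 other ERAD genes, 3 were higher and 4 lower in KO at day 4, and 14 were higher and 2 lower at day 0. Of the 26 other ER folding genes, 4 were higher and 12 lower at day 4, and 13 were higher and 8 lower at day 0.

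Markers of cell types differed between the EB groups as well. Visceral endoderm markers (8 of 8) summed to 231 to 245 in KO day 4, 9663 to 10638 in WT day 4, 344 to 354 in KO day 0 and 408 to 443 in WT day 0. Mesoderm markers (6 of 6) summed to 741 to 745 in KO day 4 and 8848 to 15316 in WT day 4, and pluripotency markers to 61791 to 62843 in KO day 4 and 31633 to 32112 in WT day 4. Fibroblast markers summed to 354 to 507 in KO day 4 and 3443 to 4643 in WT day 4, and no gene of these 4 lists was at 0 in all libraries of a day 4 group. Neuroectoderm markers (4 of 4) summed to 12254 to 12319 in KO day 4 and 6950 to 7776 in WT day 4. Most of that sum was Otx2, and Sox1 and Nes were lower in KO day 4 than in WT day 4. The part of these markers in the day 4 differences of ER genes was not tested.

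In the organoids, with 1 library per condition, there is no replicate check, and the log2 ratios of value + 1 carry 95% intervals that cover counting error only. Under TGFβ against SB, 0 of 40 members were past 2-fold with dox, where 6.75% of 13443 genes were (3.52% higher, 3.24% lower), and 1 of 40 without dox, where 6.41% were (3.56% higher, 2.85% lower). The member medians were −0.06 with dox and −0.07 without. Hspa5 had 32437 with dox and TGFβ, 32169 with TGFβ alone, 40004 with dox and SB, and 33886 with SB alone. Its ratio of TGFβ to SB was −0.30 (interval −0.32 to −0.28) with dox and −0.08 (−0.10 to −0.05) without. The member past 2-fold was Ero1l, at −1.02 (−1.11 to −0.93), with 3646 with dox and TGFβ, 1581 with TGFβ alone, 5529.8 with dox and SB and 3207 with SB alone. Calr (27076, 31642.5, 26905 and 27619), Creld2 (1735, 1398, 1643 and 1442.5) and Sec24d (2109.5, 2008, 2157 and 1758), in the same order of conditions, varied little.

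**Figure D5:**
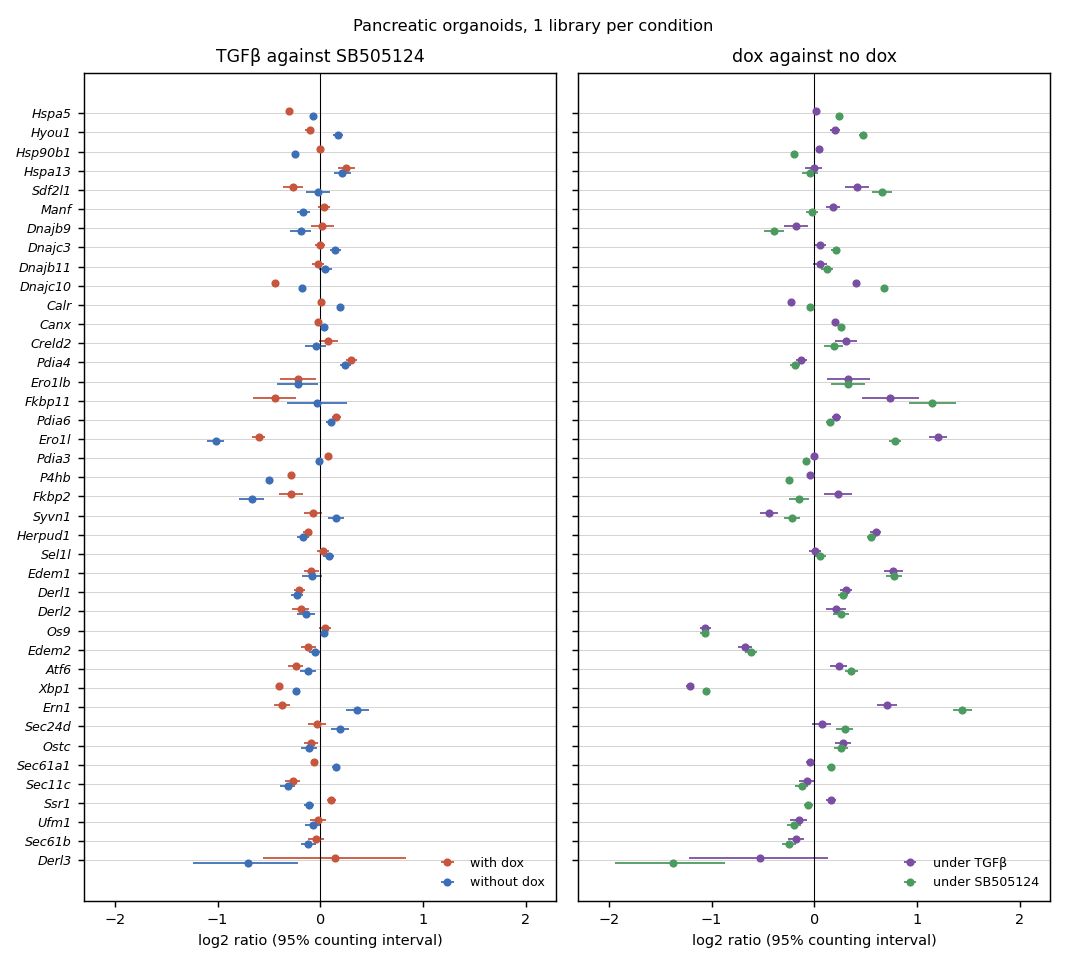
Log2 ratio of the members in pancreatic organoids (horizontal axis, with 95% counting intervals) for TGFβ against SB505124 with and without dox (left) and for dox against no dox under TGFβ and under SB505124 (right). On the left 1 of 80 points lies past 2-fold (Ero1l without dox, −1.02), and on the right Xbp1 and Os9 lie below −1 under both agents.

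Against no dox, 3 of 40 members were past 2-fold under TGFβ, where 17.4% of genes were (7.84% higher, 9.6% lower), and 5 of 40 under SB, where 17.5% were (7.93% higher, 9.57% lower). The count under SB was 3 after rescaling to the same total or quantile normalisation. Xbp1 had 12133 with dox and TGFβ and 28166 with TGFβ alone, and 16011 with dox and SB and 33175 with SB alone, ratios of −1.21 (−1.25 to −1.18) and −1.05 (−1.08 to −1.03). Os9 had 4614 with dox and TGFβ and 9646 with TGFβ alone, and 4475 with dox and SB and 9393 with SB alone, ratios of −1.06 (−1.12 to −1.01) and −1.07 (−1.12 to −1.02). Both were lower with dox under either agent. Ern1 had 2315 with dox and TGFβ and 1416 with TGFβ alone, and 2994 with dox and SB and 1103 with SB alone, higher with dox by 0.71 (0.61 to 0.81) and 1.44 (1.35 to 1.53). Herpud1 was higher with dox under both agents, by 0.60 (0.55 to 0.65) under TGFβ and 0.55 (0.51 to 0.60) under SB, and did not pass 2-fold. The remaining members past 2-fold were Ero1l under TGFβ, and Fkbp11 (1.14, 0.92 to 1.38) and Derl3 (−1.37, −1.95 to −0.87) under SB. Of the 14 genes of the Eif2ak3 and Atf4 list, 8 were past 2-fold higher with dox under TGFβ and 9 under SB. Markers of other cell types also differed between these libraries. Fibroblast markers (6 of 6) summed to 41.9 with dox and TGFβ and 38.9 with TGFβ alone, and to 10.4 with dox and SB and 63.1 with SB alone, with 4, 2, 2 and 0 of the 6 at 0 in that order, and both of those averaging at least 10 were past 2-fold lower with dox under SB. Visceral endoderm markers (8 of 8) summed to 1781 with dox and TGFβ and 1972 with TGFβ alone, and to 2143 with dox and SB and 2818 with SB alone. Of the 7 averaging at least 10, 2 were past 2-fold higher and 1 lower with dox under TGFβ, and 3 higher and 1 lower under SB, up to 4.09 on the log2 scale. Their part in the dox ratios was not tested. Ero1l, Xbp1, Os9 and Ern1 were given in full here after their values were seen.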

How the data were processed

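Libraries from total RNA used a kit that does not mark strand (TruSeq v2), with single-end reads, per the labels' protocols. The deposited values are gene signal, read counts that the authors divided by 1 factor per library, per the file headers and the values, which were whole multiples of 1 step per library in 100% of cases (tolerance 0.001). HOMER, DESeq2, HTSeq 0.6.1p1, Bowtie2, FastQC 0.11.5 and the build mm10 appear in the submitters' processing notes without their roles. Peak and chromatin data were not used here. Unmapped columns numbered 0.

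The PDA and EB tables were each fitted with limma 3.58.1 (R 4.3.3, trended variance) on log2(value + 1) over 4 groups of 2 libraries, for genes with at least 10 in at least 2 libraries, with Benjamini-Hochberg adjustment over all genes tested. Organoid ratios cover genes averaging at least 10, with exact 95% counting intervals. Alternatives were a pseudocount of 10, no filter, libraries rescaled to the same total, quantile normalisation, edgeR 4.0.16 and DESeq2 1.42.0 on recovered reads, a replicate block, and leaving out each library. Of these steps, only the limma fit was tested on simulated data, for TGFβ against SB in WT and day 4 against day 0 in WT.

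Members and lists were chosen with earlier results of these data known. All 40 members may be named, with full values for the leader of each role. Outside them the named genes are Rreb1 and up to 4 per list with the smallest adjusted p. Symbols matched RefSeq for 40 members, 2 of them by synonym.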

Additional observations from a re-analysis of the deposited data

Results flagged for a closer look

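These are the members whose change differed between the KO and WT labels past the threshold of the fit, with no explanation weighed. In PDA cells this contrast belongs to those that chose the members, so the values are a description and no independent test. The KO response to TGFβ against SB minus the WT response was past the threshold in 22, all negative. Among chaperones and their cofactors it was −1.38 for Hspa5, −1.29 for Hyou1, −0.82 for Hsp90b1, −0.66 for Hspa13, −1.40 for Dnajb9, −0.63 for Dnajc3, −0.49 for Manf and −0.60 for Calr. Among disulfide enzymes it was −0.85 for Pdia4, −0.81 for Creld2, −0.65 for Ero1l and −0.47 for Pdia6. Among ERAD genes it was −1.89 for Syvn1, −1.88 for Herpud1, −1.33 for Sel1l, −0.66 for Edem1 and −0.37 for Derl1. Among regulators and genes of entry and export it was −1.60 for Ern1, −0.78 for Atf6, −0.68 for Xbp1, −1.22 for Sec24d and −0.51 for Sec61a1.

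In the EB series the KO change from day 0 to day 4 minus the WT change was called for 21 members. It was negative for Sel1l (−1.03), Dnajc10 (−0.99), Derl1 (−0.87), Pdia3 (−0.80), Hspa13 (−0.67), Os9 (−0.67), Dnajb11 (−0.53), Atf6 (−0.50), Ufm1 (−0.49), Hspa5 (−0.41), Dnajc3 (−0.41), Edem1 (−0.40), Dnajb9 (−0.35) and Calr (−0.28). It was positive for Fkbp11 (1.86), Derl3 (1.58), Sec24d (0.84), Ero1lb (0.81), Edem2 (0.68), Manf (0.35) and Sec61b (0.33). The calls of Calr, Dnajb9, Manf and Sec61b were each lost without at least 3 of the 8 libraries taken 1 at a time, and that of Ero1lb without WT day 0 replicate 1.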

How the results depend on the processing

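No called value changed sign under the alternatives that were run. The PDA difference between the KO and WT responses ranged from 10 to 24 called members when 1 library was left out, against 22. PDA KO against WT under TGFβ ranged from 3 to 10, against 11. The replicate numbers are shared between groups without a label saying that they mark a batch. Deviations of same-numbered libraries correlated between −0.51 and 0.14 in PDA and between −0.03 and 0.09 in the EB series. The value of −0.51, between WT SB and KO TGFβ, shows deviations that ran opposite. Whether a batch numbered otherwise lies behind it was not tested. With the replicate number as a block, 4 members (3 higher, 1 lower) were called in PDA KO against WT under TGFβ, and every other count stayed within 1.5 times. In the organoids, dox against no dox under SB had 3 members past 2-fold after rescaling to the same total and 3 after quantile normalisation, against 5. Leaving out a library gave 33 to 37 calls for the KO response and 30 to 37 for the WT response in PDA, 26 to 30 for KO against WT under SB, 17 to 25 and 18 to 21 for the day change in KO and WT, 17 to 23 for its difference, and 25 to 28 and 20 to 23 for KO against WT at day 4 and day 0. A left-out library leaves 1 library in a group, which is then assumed to vary like the other groups. Rescaling to the same total shifted the all-gene median of the KO response in PDA by 0.11. With 2 libraries per group, small differences between genotypes may be missed, and in PDA the KO SB group rests partly on its shallow replicate 1.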
